A study of Mus musculus with 10 samples.

Results

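The chromatin around 10 genes of the glucocorticoid response and the circadian clock was described in ATAC-seq peak lists of the mouse epicardium and its derivatives. The genes were Nr3c1, Fkbp5, Tsc22d3, Dusp1, Sgk1, Errfi1, Zbtb16, Klf9, Per1 and Per2, 10 of the 21826 protein-coding genes in the annotation. A peak belonged to a gene when its summit lay inside the gene or within 25 kb of it on mm10, and a promoter was the sequence within 1 kb of the gene's principal start. These windows held 237 of the 184764 regions, each reaching 250 bases to either side of a summit, and 207 of the 154147 regions found in at least 2 libraries. Regions that overlapped one of higher score were dropped, and a summit counted for a region only within 250 bases of its center. Some summits therefore belonged to no region.

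Glucocorticoids cross the cell membrane and bind the glucocorticoid receptor, encoded by Nr3c1, which then enters the nucleus and acts on the paired half-sites of a glucocorticoid response element. Many of its targets restrain the hormone's own signal or other signals, among them Fkbp5, Tsc22d3 and Dusp1. Per1 and Per2 belong both to this response and to the negative limb of the circadian clock, whose activators bind E-boxes. Glucocorticoids are known for their part in the maturation of fetal organs, the heart included.

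All cells came from hearts of C57BL/6J embryos of the genotype Rosa26tdTomato;Wt1CreERT2/+, in which tamoxifen, given to the pregnant females before the stages studied, marks cells with an active Wt1 promoter and their descendants. Epicardial cells, sorted as CD31-tdTomato+PDPN+, came from E11.5 and E17.5 hearts, with 3 libraries at each stage, and each sample pooled littermates, with 6 hearts at E11.5 and 4 at E17.5. Epicardium-derived cells (EPDCs), sorted as CD31-tdTomato+PDPN-, came from E12.5 hearts in 1 library and from E13.5 hearts in 2 libraries, 1 of them the shared list of a sample run as technical replicates, and the labels give 4 to 13 hearts per E13.5 sample. No hormone was given in any group. Cre acts only where Wt1 was active at the time of tamoxifen, and Pdpn was part of the sort, so its promoter is no readout of the groups.

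ATAC-seq inserts adapters into open chromatin, and a summit marks the place of most fragments in a called interval. The lists held 94909 to 142743 summits, and the genome background of a library was 2.07 to 10.9 fragments per position, highest in E13.5 EPDC sample 2. The level of a promoter or region is the percentile of its strongest summit among all summits of that library, ranked by −log10 p. It is 0 where no summit was called within it, which does not show closed chromatin, and a region at 0 may have a summit just beside it. Differences are in percentile points. The EPDC lists kept 252 to 268 summits outside the main chromosomes and the epicardial lists 0, and no EPDC library shared an embryonic day with an epicardial one. List-making, embryonic day and cell population therefore cannot be told apart in any comparison with EPDCs. The 3 comparisons, between stages and of EPDCs with each stage, share libraries.

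The sorted populations were checked by marker promoters. Of 8 epicardial markers other than Pdpn, 7 had a summit in each E11.5 library, 8 in each E17.5 library and 6 to 7 in the EPDC libraries, and the list's median ran from 93.8 to 94.7, 90.1 to 92.6 and 84.6 to 88.7. Upk3b, a mesothelial surface gene, was at 98.6, 99.2 and 98.4 at E11.5, at 97.0, 97.9 and 97.5 at E17.5 and at 73.6, 22.8 and 46.1 in EPDCs. Against E11.5, Upk3b, Aldh1a2, Krt8 and Krt19 were lower in EPDCs. Wt1, Tbx18 and Tcf21, at 90.2 to 98.0 in EPDCs, did not pass that test. Against E17.5, Upk3b, Aldh1a2 and Krt8 were lower in EPDCs and Wt1 was higher (4.19 ± 1.03, limma adjusted p = 0.00825). Msln had summits at E17.5 alone. Of 6 mesenchymal markers, 4 to 5, 5 to 6 and 6 had a summit at E11.5, at E17.5 and in EPDCs, with medians of 37.2 to 57, 59.1 to 65.4 and 72.6 to 84.1. Of 4 endothelial markers only Kdr had a summit, in every library, and Pecam1, which encodes CD31, Cdh5 and Tie1 were at 0 throughout. Of 4 cardiomyocyte markers, 3 had a summit in each E11.5 library, 1 to 2 at E17.5 and 2 in EPDCs. Their medians were 12.7 to 34.0, 0 to 6.2 and 14.9 to 18, and Myh6 was at 0 throughout. Actn2 was at 91.5 to 94.5 at E11.5, 77.8 to 85.2 at E17.5 and 90.0 to 91.1 in EPDCs. Actn2 was lower at E17.5 than at E11.5 (-12.1 ± 1.92, limma adjusted p = 0.000713). It was higher in EPDCs than at E17.5 (9.33 ± 1.92, limma adjusted p = 0.00273). Tnnt2 passed both tests in the same directions, and Nppa passed neither. Of 4 blood markers 1 to 2 had a summit in each library, with medians of 26.1 to 30.6, 32.1 to 38.7 and 0 to 11.1 and with Ptprc and Klf1 at 0. The macrophage gene Cd68 was at 52.2 to 61.1 at E11.5, at 71.3 to 79.9 at E17.5 and at 0 to 22.2 in EPDCs. The part of these other cell types in the results below was not tested. In bulk samples a smaller share of open cells and less opening per cell cannot be told apart.

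Short sequences show what the windows contain and where the motifs lie. No region of the 10 windows held the full palindrome, the half-sites AGAACA and TGTTCT 3 bases apart, which occurred in 0.0201% of all 154147 regions. The relaxed form, GNACA and TGTNC 3 bases apart on either strand, occurred in 10 of the 207 regions (4.83%) and in 0.939% of all regions. All 10 lay at Fkbp5, Per1, Per2 and Zbtb16. The matches below are read from GRCm38.p6, the same build as mm10, on the strand of the gene, and capitals mark the relaxed element with its spacer.
Zbtb16 intron, minus strand, chr9:48775800-48775862: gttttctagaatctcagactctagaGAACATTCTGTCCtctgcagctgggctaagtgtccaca
Zbtb16 intron, minus strand, chr9:48723679-48723741: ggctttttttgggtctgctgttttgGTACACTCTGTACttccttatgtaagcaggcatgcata
Fkbp5 downstream, minus strand, chr17:28394290-28394352: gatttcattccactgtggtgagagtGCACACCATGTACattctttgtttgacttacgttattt
Per1 intron, plus strand, chr11:69097052-69097114: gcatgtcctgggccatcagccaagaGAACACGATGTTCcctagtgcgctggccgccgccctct
Per2 intron, minus strand, chr1:91436458-91436520: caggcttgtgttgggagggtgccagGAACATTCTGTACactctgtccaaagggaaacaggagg

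The first of these Zbtb16 regions had a summit in the E17.5 libraries alone, as given below. The second was at 61.3, 61.6 and 48.4 at E11.5, at 72.9, 77.6 and 71.3 at E17.5 and at 41.1, 52.5 and 55.5 in EPDCs, and it was higher at E17.5 by 16.8 ± 5.43 points (limma adjusted p = 0.0397). The Fkbp5 region downstream of the gene was at 50.0, 65.2 and 32.0 at E11.5, at 67.2, 74.5 and 74.0 at E17.5 and at 15.8, 0 and 0.8 in EPDCs, the lowest group. The Per1 region passed no test, at 62.9 to 74.0 at E11.5, 68.5 to 70.6 at E17.5 and 60.6 to 67.9 in EPDCs. The Per2 region was at 70.3 to 79.1, 57.8 to 76.4 and 52.6 to 81.2, and its groups overlapped.

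Clock motifs occurred in regions of several of the genes. The E-box, CACGTG, occurred in 16 of the 207 regions (7.73%) against 8.35% of all regions, and the D-box, TTATGTAA on either strand, in 8 (3.86%) against 1.78%. E-boxes lay in 5 regions of Per1, 3 each of Fkbp5 and Klf9, 2 of Zbtb16 and 1 each of Tsc22d3, Dusp1 and Sgk1, and D-boxes in 2 each of Tsc22d3 and Zbtb16 and 1 each of Nr3c1, Per2, Sgk1 and Errfi1. The cyclic AMP response element, TGACGTCA, occurred in 4 regions (1.93%) against 1.1%. The sequences below come from just upstream of the 5′ most Per1 start and of the Per2 start, and capitals mark the E-box at Per1 and the D-box at Per2. A match is a description of letters, not of binding.
Per1 upstream start, plus strand, chr11:69095042-69095097: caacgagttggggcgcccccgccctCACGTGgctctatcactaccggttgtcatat
Per2 start, minus strand, chr1:91459417-91459474: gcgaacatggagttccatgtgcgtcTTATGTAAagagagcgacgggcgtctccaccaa

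The first comparison was of the number of summits near the genes. The 10 windows held 153, 187 and 185 summits in the E11.5 libraries, 160, 213 and 183 in the E17.5 libraries, and 133, 144 and 157 in the EPDC libraries, the E12.5 library first and then both E13.5 ones. Per 100000 summits of the library this was 131 ± 3.02 (SD, n = 3) at E11.5, 168 ± 1.93 at E17.5 and 128 ± 7.73 in EPDCs. Every E17.5 library lay above every other library. The difference between stages was 37.4 per 100000, with a two-sided exact permutation p of 0.1, the smallest that 3 libraries against 3 allow. EPDCs lay 40.7 per 100000 below E17.5 (exact permutation p = 0.1) and overlapped E11.5 (-3.33, exact permutation p = 0.6). With equal numbers of top summits the overlap ended, with EPDCs at 130, 133 and 131 and E11.5 at 141, 137 and 142 (-9.13, exact permutation p = 0.1).

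**Figure D1:**
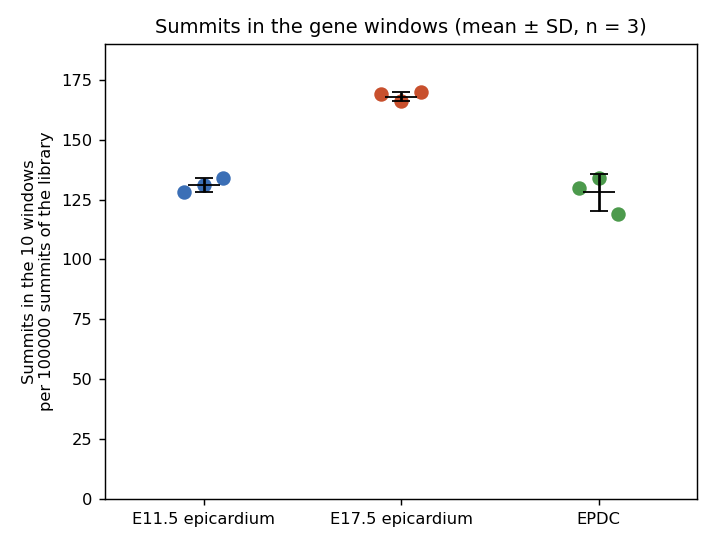
Summits in the windows of the 10 genes per 100000 summits of the library (y axis) for the 3 groups (x axis). Points are libraries and bars are means ± SD, and the E17.5 libraries sit at 166 to 170 against 119 to 134 in the other 6.

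All 10 promoters had a summit in all 9 libraries. At E17.5 the promoters of Errfi1, Per1, Dusp1 and Tsc22d3 were higher than at E11.5 and none was lower, and 6 did not pass the test. Among all 14933 promoters tested, 3.9% were higher and 14.0% lower at E17.5. The median difference was 1.27 points over the 10 promoters and -0.42 over all. The test was limma across all promoters with Benjamini-Hochberg adjustment. When fold enrichment set the ranks, 0 were higher and 2 lower, and the 4 calls were lost.

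Nr3c1, on chromosome 18, encodes the receptor. Its promoter was at 86.0, 87.7 and 83.6 at E11.5, at 72.9, 85.3 and 78.3 at E17.5, and at 82.4, 85.9 and 89.4 in EPDCs. The groups overlapped, and no contrast passed the test (E17.5 minus E11.5, -6.92 ± 3.07 SE, limma adjusted p = 0.143). The most upstream start, of transcript Nr3c1-209, had no summit within 250 bp in any library.

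Fkbp5 encodes a co-chaperone that lowers the receptor's affinity for hormone. Its promoter was among the strongest 5% of summits in every library, at 96.4 to 98.1 at E11.5, 97.1 to 99.0 at E17.5 and 96.7 to 97.2 in EPDCs. None of its 3 contrasts passed the test.

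Tsc22d3 encodes GILZ, a leucine zipper protein that mediates anti-inflammatory effects of glucocorticoids. The promoter of the short isoform was at 74.3, 77.9 and 76.4 at E11.5, at 89.5, 85.1 and 83.3 at E17.5, and at 78.5, 83.9 and 89.0 in EPDCs. The stages did not overlap, and E17.5 was higher by 9.77 ± 2.93 points (limma adjusted p = 0.0341). Another start, of transcript Tsc22d3-204 and 5.15 kb upstream, had summits in EPDCs alone, at 26.4, 38.2 and 54.6. The region passed the filter only through EPDCs, so this is a description with no test.

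Dusp1 encodes a phosphatase that switches off MAP kinases. Its promoter was at 91.1, 91.5 and 88.1 at E11.5, at 93.7, 93.8 and 95.0 at E17.5, and at 92.6, 93.8 and 93.2 in EPDCs. Both E17.5 and EPDC libraries lay above all E11.5 libraries. The stage difference was 3.90 ± 1.17 points (limma adjusted p = 0.0341), and that of EPDCs from E11.5, 2.93 points, did not pass (limma adjusted p = 0.103).

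Errfi1 encodes an inhibitor of EGF receptor signaling. Its promoter was at 96.7, 96.6 and 95.1 at E11.5, at 98.1, 98.2 and 98.8 at E17.5, and at 96.8, 96.3 and 97.4 in EPDCs. The E17.5 libraries lay above all others. The difference was 2.22 ± 0.538 points from E11.5 (limma adjusted p = 0.0113) and -1.51 ± 0.538 for EPDCs against E17.5 (limma adjusted p = 0.0494, and 0.0508 with no filter on the number of libraries).

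Sgk1, a serum and glucocorticoid induced kinase, was at 93.1 to 95.3, 90.5 to 96.0 and 94.1 to 96.7 in the 3 groups, which overlapped. Its most upstream start, of transcript Sgk1-204 and 112 kb away, was at 77.7, 67.4 and 68.7 at E11.5, at 4.0, 54.4 and 39.5 at E17.5 and at 57.9, 45.4 and 73.0 in EPDCs. There the E17.5 libraries were the lower ones, without overlap with E11.5.

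Zbtb16 encodes PLZF, a zinc finger repressor, and Klf9 a Krüppel-like factor, both known glucocorticoid targets. The Zbtb16 promoter was at 95.3, 94.1 and 94.2 at E11.5, at 94.6, 97.0 and 96.7 at E17.5, and at 87.5, 89.9 and 89.1 in EPDCs. All 3 EPDC libraries lay below all 6 epicardial libraries. EPDCs were lower by 5.65 points than E11.5 (-5.65 ± 1.08, limma adjusted p = 0.00258) and by 7.25 than E17.5 (-7.25 ± 1.08, limma adjusted p = 0.000228). Klf9 was at 93.6 to 98.2 in all libraries and passed no test.

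Per1 and Per2 encode the period proteins of the clock. The principal Per1 start, of transcript Per1-201, was at 61.7, 61.9 and 72.7 at E11.5, at 79.9, 81.1 and 80.5 at E17.5, and at 50.7, 54.9 and 57.4 in EPDCs. The 3 groups did not overlap. E17.5 was higher than E11.5 by 15.1 ± 4.42 points (limma adjusted p = 0.0309), and EPDCs were lower than E17.5 (-26.1 ± 4.42, limma adjusted p = 0.000647). The most upstream Per1 start, of Per1-202 and 3.73 kb away, where the E-box above lies, was much stronger, at 97.6 to 99.5 in all 9 libraries. Read at the strongest annotated start, Per1 was lower at E17.5 (-0.96, limma adjusted p = 0.0407), so the direction for the gene depends on the start. Per2 was at 97.3 to 99.3 in all libraries, and its stage difference of -1.12 ± 0.367 did not pass (limma adjusted p = 0.0506).

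**Figure D2:**
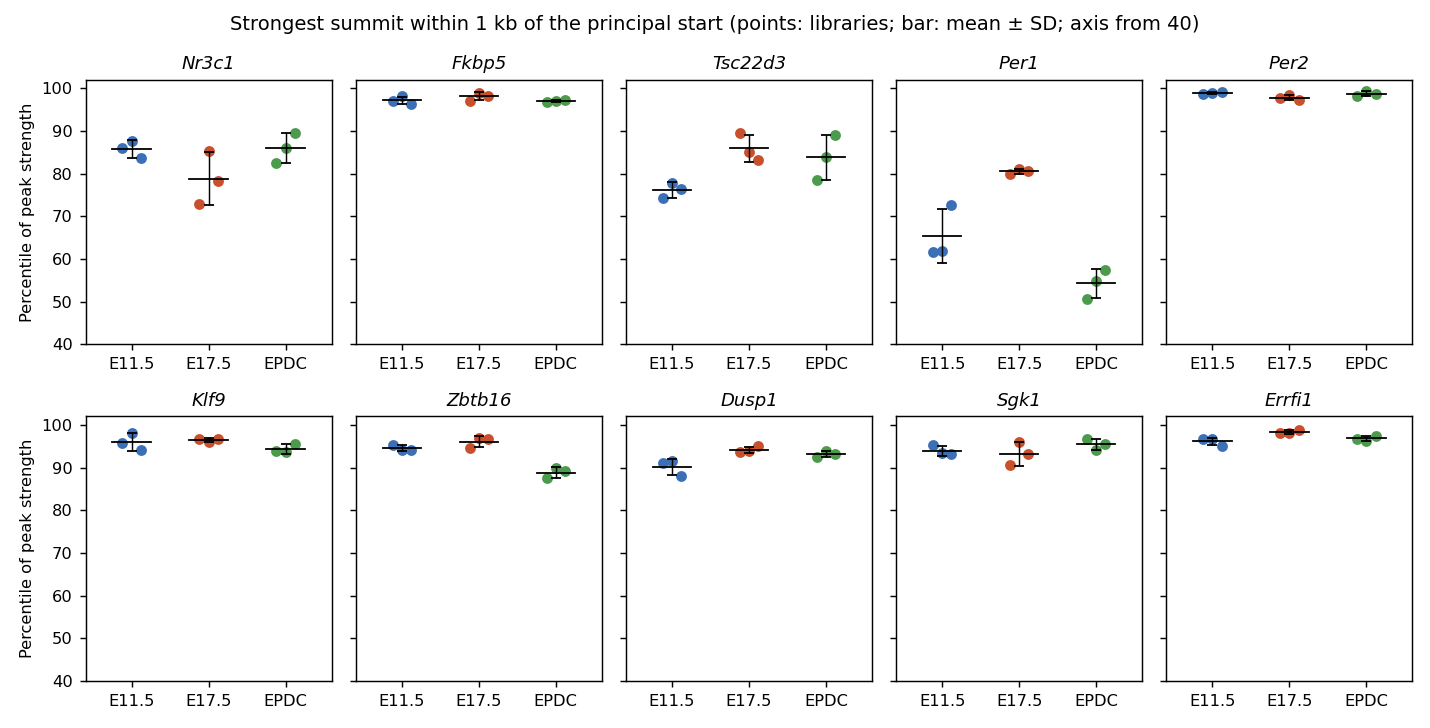
Percentile of the strongest summit within 1 kb of the principal start (y axis, from 40) in the 3 groups (x axis), 1 panel per gene. Points are libraries and bars are means ± SD (n = 3), with Per1 at 65.4 ± 6.31, 80.5 ± 0.6 and 54.4 ± 3.42 in E11.5, E17.5 and EPDC libraries.

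Against E11.5, 1 of the 10 promoters was lower in EPDCs (Zbtb16) and 0 higher, where 12.4% of all promoters were lower and 5.3% higher. Against E17.5, 3 were lower in EPDCs (Zbtb16, Per1 and Errfi1) and 0 higher, where 14.3% of all were lower and 14.9% higher. Levels were also taken as log2 of summit fragments, centered on each library's median over the promoters with a summit in all 9 libraries. On this scale, chosen after seeing the data, 6 promoters passed against E11.5, 4 higher and 2 lower, and 5 against E17.5, 2 higher and 3 lower. With equal numbers of top summits, 3 passed against E11.5, 2 of them higher, and with fold enrichment 3 passed against E17.5, all of them higher. The counts and directions for EPDCs therefore rest on the scale, and shares over all promoters are given for the main scale alone.

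Single libraries also decided calls between stages. Without E17.5 replicate 3 no promoter was called, and without E17.5 replicate 2 the calls were 1 higher and 2 lower, the lower ones Nr3c1 (-10.2, limma adjusted p = 0.0341) and Per2 (-1.42, limma adjusted p = 0.0227). Without any other 1 of the libraries, 1 to 2 were higher and 0 lower. At any annotated start the calls were 3 higher and 2 lower, and at the 5′ end of the gene record 0 higher and 2 lower of the 8 tested there. Tsc22d3 lost its call without any 1 of the 6 libraries (limma adjusted p = 0.0506 to 0.139). Per1 lost it without any but E11.5 replicate 3 (0.0699 to 0.116), and Dusp1 without any but E11.5 replicate 2 (0.0506 to 0.133). Errfi1 lost it without E17.5 replicate 3 alone (limma adjusted p = 0.0594). The EPDC calls of Zbtb16 were kept whichever library was left out, and with fold enrichment they were lost (limma adjusted p = 0.573 against E11.5 and 0.0794 against E17.5). On the log2 score the one against E11.5 was lost too (-0.38, limma adjusted p = 0.0558), and the 4 promoters called there were all higher in EPDCs.

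The wider pathway was read from lists of other genes, beside the shares over all promoters of 3.9% higher and 14.0% lower at E17.5, 5.3% and 12.4% for EPDCs against E11.5, and 14.9% and 14.3% for EPDCs against E17.5. Of 11 genes of receptor and hormone handling, 1 (9.09%) was higher and 1 (9.09%) lower at E17.5. Hsd11b1, whose enzyme regenerates active glucocorticoid from its inert form, had no promoter summit at E11.5 and was at 35.4, 40.8 and 44.6 at the later stage. In EPDCs it was at 0, 0 and 18.1, so that it passed the filter of 2 libraries only through E17.5 and its call is no test. Ptges3, the p23 co-chaperone, fell by 2.85 points (limma adjusted p = 0.00929). Against E11.5, Ncoa2, a receptor coactivator, was higher in EPDCs by 18.1 ± 5.68 points (limma adjusted p = 0.0431), and 0 of the 11 were lower. Against E17.5, Ncoa2 was higher in EPDCs and Hsp90ab1, an HSP90 chaperone of the receptor, was lower (-6.87 ± 1.5, limma adjusted p = 0.00394), and the lower call of Hsd11b1 is again no test.

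Of 14 other glucocorticoid targets tested, 1 (7.14%) was higher at E17.5 and 1 (7.14%) lower. Timp3, an inhibitor of matrix metalloproteinases, was higher by 6.24 ± 1.61 points (limma adjusted p = 0.0158), and Angptl4, which inhibits lipoprotein lipase, fell by 25.1 points (limma adjusted p = 0.00809). In EPDCs, 1 was higher and 0 lower than at E11.5. Against E17.5, 0 were higher, and the metallothionein genes Mt1 (-3.75, limma adjusted p = 0.0104) and Mt2 (-16.2, limma adjusted p = 0.0306) and the cell cycle inhibitor gene Cdkn1a (-7.0, limma adjusted p = 0.0156) were lower. Of 20 other clock genes, 0 were higher and 2 (10%) lower at E17.5, a share under that of all promoters, namely Nr1d1, the repressor REV-ERB alpha, at -7.17 ± 1.74 (limma adjusted p = 0.0115), and Tef, a D-box activator, at -1.16 ± 0.247 (limma adjusted p = 0.00527). In EPDCs 0 were higher and 3 lower than at E11.5, and 2 were higher and 4 lower than at E17.5. Nr1d1 was at 93.3 to 94.0 at E11.5, 84.3 to 88.0 at E17.5 and 80.4 to 82.8 in EPDCs, so that its groups did not overlap. The 3 lists' medians between stages were 0.27, 0.68 and -0.53 points.

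Around the genes, regions higher at E17.5 were about as many as regions lower. Of the 207 regions tested, 43 (20.8%) were higher and 38 (18.4%) lower at E17.5, where 9.14% of all regions were higher and 24.9% lower. Of these calls, 18 of the 43 and 7 of the 38 had summits in 1 group alone. The median difference was 0 points over the 207 and -3.95 over all. Per1 had 8 of 23 regions higher and 6 lower, Zbtb16 9 of 35 and 7, Dusp1 7 of 31 and 4, and Fkbp5 6 of 28 and 3. Sgk1 stood on the other side, with 1 of 20 higher and 8 lower. Nr3c1, Tsc22d3, Per2, Klf9 and Errfi1 had 2, 4, 2, 2 and 2 higher and 3, 3, 1, 1 and 2 lower. With fold enrichment, 31 regions were higher and 44 lower, and with equal numbers of top summits 51 and 28, so which side was larger rests on the scale. Shares over all regions are given for the main scale alone, so whether these shifts are particular to the windows was not tested. Windows hold starts of neighboring genes too, and regions of 1 window are not independent.

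**Figure D3:**
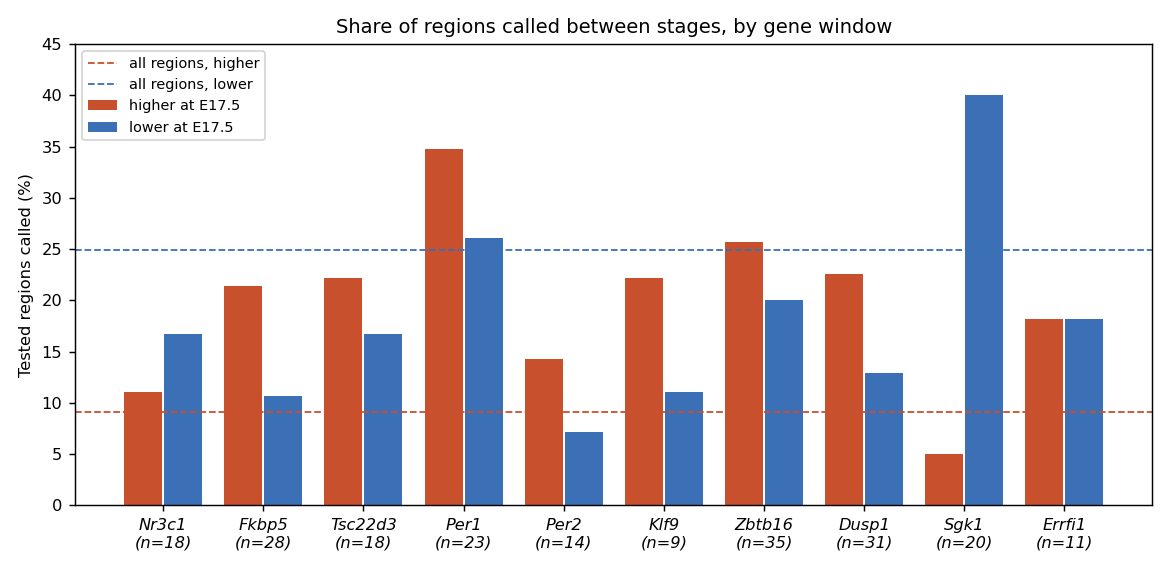
Share of tested regions called higher (orange) or lower (blue) at E17.5 by limma (y axis, percent) in each gene's window (x axis, with the number tested). Dashed lines are the shares over all regions, 9.14% higher and 24.9% lower, and Sgk1 is the 1 gene whose higher share (5.0%) lies under its line.

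**Figure D4:**
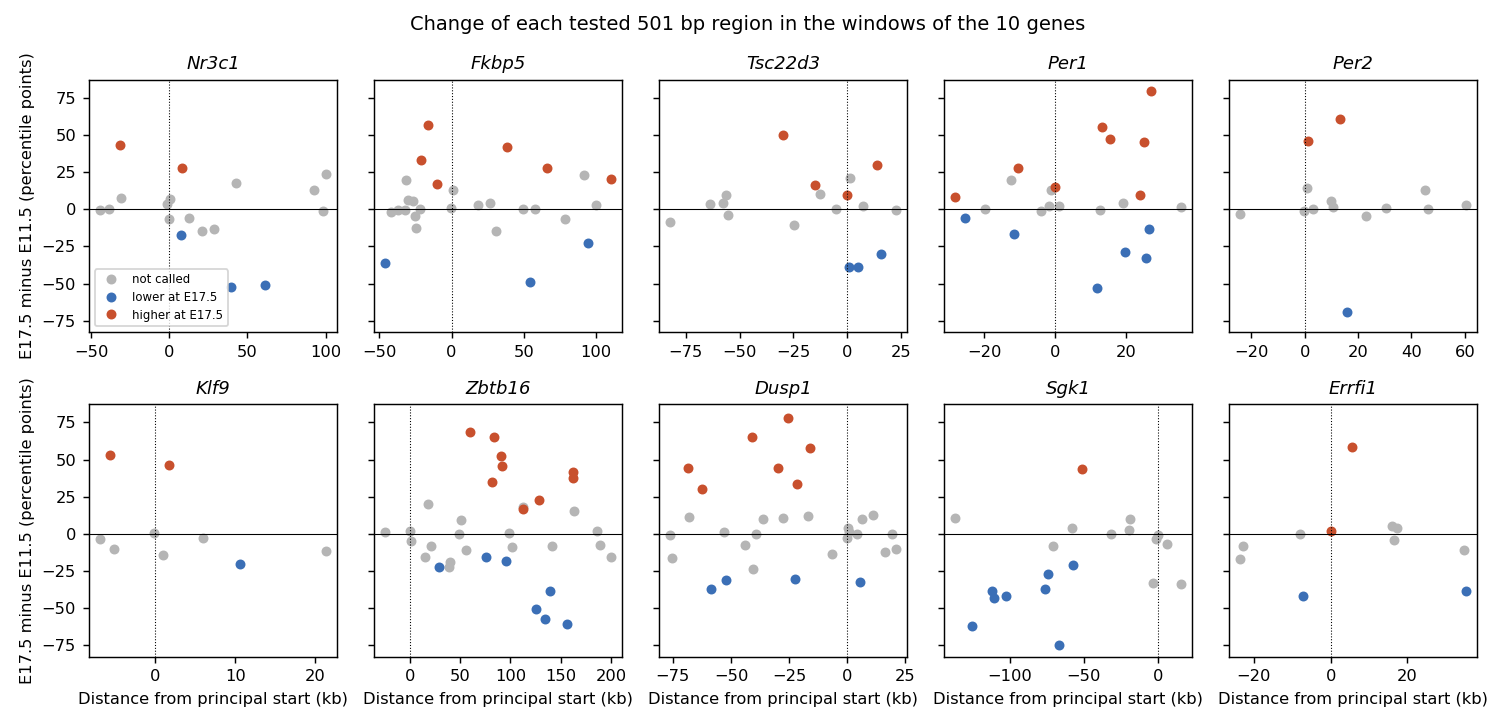
Difference between E17.5 and E11.5 in percentile points (y axis) for each tested region against its distance from the principal start in kb (x axis, positive downstream), 1 panel per gene. Colors give the limma call, with 43 regions higher and 38 lower, and both kinds occur up- and downstream of the starts.

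Several regions more than 1 kb from every start of the gene had summits at E17.5 alone. In a Dusp1 intron, 25.4 kb upstream of the principal start (chr17:26533695-26534195), summits were at 81.2, 81.6 and 71.7 at E17.5, and none was called in the other 6 libraries. In the Zbtb16 intron, 60.2 kb downstream of the start (chr9:48775456-48775956), the region with the first response element match above was at 55.5, 78.1 and 72.1 at E17.5 and at 0 elsewhere. No interval of another library reached either region.

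In an Errfi1 intron, 5.68 kb downstream of the start (chr4:150860507-150861007), summits were at 50.9, 65.0 and 59.6 at E17.5 and at 0 elsewhere. In Tsc22d3, 30.0 kb upstream of the short start and inside the long gene (chrX:140572942-140573442), they were at 38.2, 62.9 and 49.1 at E17.5 and at 0 elsewhere. These, too, lay under no interval of another library. Regions with summits in 1 group alone passed the filter through the group where they were high and were named for their difference, so their values are given as a description with no test.

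Fkbp5 had 2 intronic regions that were higher at E17.5 and also had summits in another group. The one 16.3 kb upstream of the principal start (chr17:28502163-28502663) was at 0 in all E11.5 libraries, at 61.2, 56.4 and 51.5 at E17.5, and at 0, 18.9 and 22.9 in EPDCs (stage difference 56.4 ± 6.84, limma adjusted p = 0.00027). The one 38.2 kb downstream (chr17:28447731-28448231) was at 32.7, 31.2 and 31.0 at E11.5, at 66.1, 77.1 and 77.6 at E17.5 and at 0 in EPDCs. Its 3 groups did not overlap, and EPDCs were lower than E17.5 by 73.6 points (-73.6 ± 5.41, limma adjusted p = 1.22e-05). The center of this last region holds an AP-1 element, TGACTCA, in capitals below on the minus strand.
Fkbp5 intron, minus strand, chr17:28447906-28448056: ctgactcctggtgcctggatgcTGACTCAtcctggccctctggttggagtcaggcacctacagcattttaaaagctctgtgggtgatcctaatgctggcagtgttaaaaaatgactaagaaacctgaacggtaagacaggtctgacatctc

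AP-1 elements occurred in 30 of the 207 regions (14.5%), against 16.9% of all. They were in 9 of the 43 regions higher at E17.5 and in 2 of the 38 lower ones, where 29.1% of all higher and 14.6% of all lower regions held one. Of the 9, 4 lay at Fkbp5, 3 at Dusp1 and 1 each at Tsc22d3 and Zbtb16. The relaxed response element was in 2 of the 43 and 1 of the 38, against 1.19% and 0.831% of all higher and lower regions.

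At Per1 and Klf9, regions without a summit in some libraries lay under intervals called in all 9. A region 26.9 kb downstream of Per1, within 1 kb of the start of Aloxe3 (chr11:69125639-69126139), had summits at 74.8, 82.3 and 81.0 at E17.5 and none in the other 6 libraries. Intervals of all 9 libraries overlapped it, and scored by those intervals it was lower at E17.5 (-10.8, limma adjusted p = 0.0045). The Klf9 region 5.66 kb upstream, in an exon of 2410080I02Rik, was at 0, 52.8 and 32.3 at E11.5, at 74.5, 84.5 and 85.6 at E17.5 and at 0 in EPDCs (53.1 points, limma adjusted p = 0.00639). It also lay under intervals of all 9 libraries, and by intervals the difference was 9.53 points (limma adjusted p = 0.0625).

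Of the 207 regions, 20 (9.66%) had a summit in every E17.5 library and in none of the other 6, against 3.57% of all regions. Zbtb16 held 7 of them, Dusp1 3, Fkbp5, Tsc22d3 and Per1 2 each, and Nr3c1, Per2, Sgk1 and Errfi1 1 each. Without regions that an interval of another group overlapped, 17 (8.21%) were left, against 3.11% of all. Regions with summits in E11.5 libraries alone numbered 8 (3.86%, against 4.49%) and those in EPDCs alone 5 (2.42%, against 3.87%). Summits in all 9 libraries were found in 72 regions (34.8%, against 29.6%), 16 of them at Per1.

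**Figure D5:**
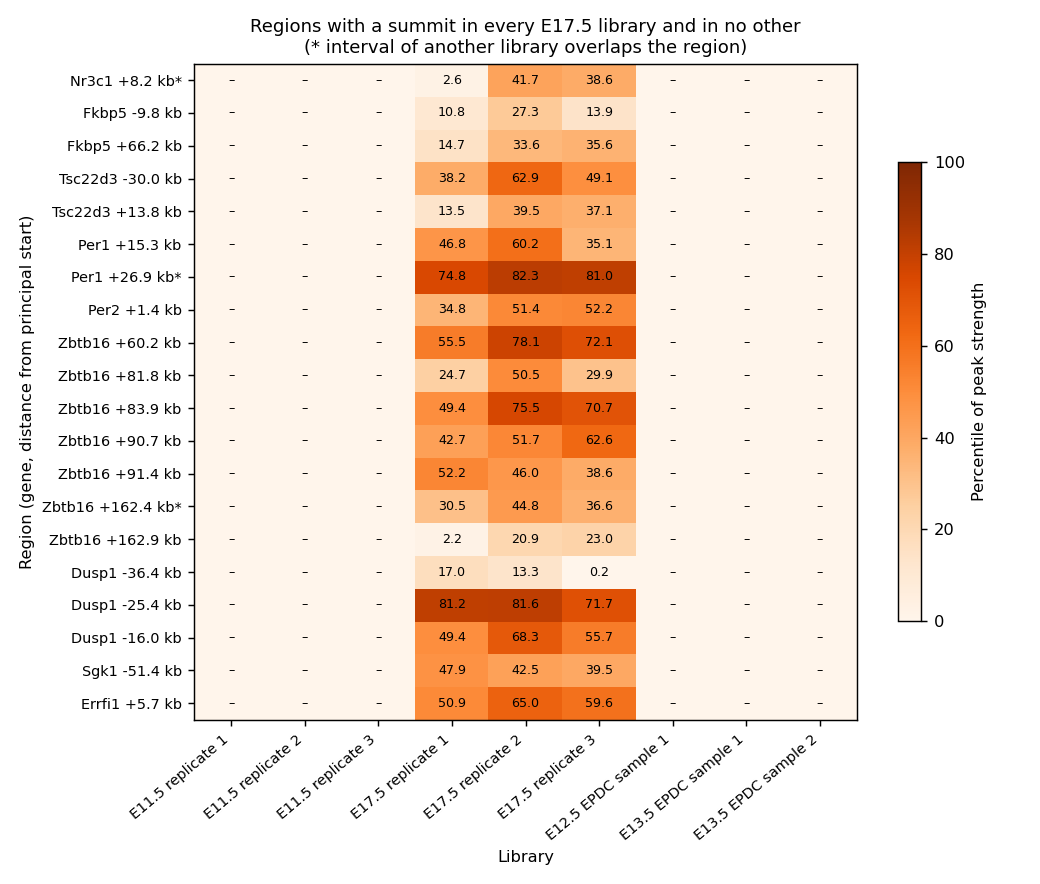
Percentile of peak strength (color and printed value) in the 9 libraries (x axis) for the 20 regions with a summit in every E17.5 library and in no other (y axis, gene and distance from the principal start in kb). A dash is no summit and an asterisk marks the 3 regions that an interval of another library overlaps, and the Dusp1 region at 81.2, 81.6 and 71.7 is among the strongest.

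Other regions were lower at E17.5 or had summits at E11.5 alone. At Sgk1, a region 126 kb upstream of the principal start (chr10:21868573-21869073) was at 59.4, 66.6 and 59.4 at E11.5 and at 0 in the other 6 libraries. Another, near the start of Sgk1-205 and 66.8 kb upstream, was at 64.6, 78.8 and 81.5 at E11.5, at 0 at E17.5 and at 42.8, 18.9 and 25.1 in EPDCs, and the 3 groups did not overlap (stage difference -75.0, limma adjusted p = 0.000107). In a Per2 intron 15.8 kb downstream (chr1:91443226-91443726), summits were at 77.7, 81.0 and 77.3 at E11.5, at 0, 28.0 and 0 at E17.5, and at 18.6, 0 and 0 in EPDCs (stage difference -69.3 ± 8.89, limma adjusted p = 0.000375). In the Nr3c1 gene, an intronic region 39.5 kb downstream of the start was at 52.0, 66.3 and 38.4 at E11.5, at 0 at E17.5 and at 26.4, 0 and 43.3 in EPDCs (stage difference -52.2, limma adjusted p = 0.00553).

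The Zbtb16 intron held regions of both kinds. The strongest distal one, 75.3 kb downstream (chr9:48760404-48760904), was at 93.0, 96.3 and 96.6 at E11.5, at 77.3, 80.5 and 82.3 at E17.5, and at 94.1, 94.1 and 93.6 in EPDCs. It was lower at E17.5 (-15.3 ± 1.5, limma adjusted p = 9.16e-05), whereas EPDCs did not pass against E11.5 (limma adjusted p = 0.51). The region 135 kb downstream was at 38.9, 64.1 and 68.3 at E11.5 and at 0 elsewhere.

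In EPDCs more regions of the windows were lower than higher on the percentile scale. Against E11.5, 11 regions (5.31%) were higher and 44 (21.3%) lower, where 10.3% and 22.7% of all regions were. Against E17.5, 22 (10.6%) were higher and 53 (25.6%) lower, where 19.9% and 16.4% of all were. Of these calls, 3 of the 11 and 7 of the 44 against E11.5, and 3 of the 22 and 19 of the 53 against E17.5, had summits in 1 group alone. Zbtb16 had 0 higher and 10 lower of 35 against E11.5, and 2 and 13 against E17.5. Without E12.5 EPDC sample 1, 26 were higher and 38 lower against E11.5, and 37 and 49 against E17.5. The number of higher calls thus rests on that library. On log2 fragments, among the 72 regions with a summit in all 9 libraries, 26 were higher and 8 lower against E11.5, and 8 and 32 against E17.5. The direction against E11.5 turned there, but the scale and the set of regions had both changed, so their parts cannot be told apart. With equal numbers of top summits, 24 were higher and 30 lower against E11.5, and with fold enrichment 32 and 41 against E17.5. Shares over all regions are not given for these alternatives.

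Some regions lower in EPDCs had summits in every epicardial library of both stages. In an Sgk1 intron 19.6 kb upstream (chr10:21974777-21975277), summits were at 78.6, 70.9 and 69.8 at E11.5, at 69.0, 78.4 and 79.1 at E17.5, and at 0, 0 and 19.3 in EPDCs. EPDCs were lower than E11.5 by 66.6 points (-66.6 ± 6.55, limma adjusted p = 0.000112). In a Per2 intron 0.861 kb from its start, they were at 76.6, 72.1 and 76.7 at E11.5, at 87.5, 90.0 and 90.0 at E17.5 and at 14.2, 0 and 21 in EPDCs (-63.4, limma adjusted p = 6.1e-05). In a Dusp1 intron 6.35 kb upstream (chr17:26514623-26515123), they were at 82.0, 81.5 and 73.2 at E11.5, at 51.5, 76.2 and 68.6 at E17.5 and at 23.9, 0 and 0 in EPDCs (-70.9 ± 8.5, limma adjusted p = 0.000312).

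At Errfi1 and Nr3c1 the distal regions of highest mean percentile were lower in EPDCs as well. The Errfi1 one, 16.6 kb downstream, was at 83.9, 79.9 and 89.2 at E11.5, at 80.8, 80.8 and 79.7 at E17.5 and at 68.6, 60.7 and 70.8 in EPDCs (-17.6 ± 3.17 against E11.5, limma adjusted p = 0.00267). The Nr3c1 one, 98.7 kb downstream of the start and past the gene's end, was at 94.8, 97.2 and 95.9, at 94.3, 94.5 and 94.9 and at 89.8, 90.5 and 89.9 (-5.86 ± 0.853, limma adjusted p = 0.000802). At both, every EPDC library lay below every epicardial one. In a coding exon of Nr3c1, 61.1 kb downstream, summits were at 54.8, 45.5 and 53.3 at E11.5, at 0 at E17.5 and at 0, 0 and 16.9 in EPDCs, so that it passed the filter of 2 libraries only through E11.5 and its values are a description with no test. Downstream of Tsc22d3, 15.8 kb from its start, they were at 78.5, 67.6 and 73.3 at E11.5, at 36.0, 51.6 and 42.2 at E17.5 and at 51.3, 18.9 and 21.7 in EPDCs, so that both other groups lay below E11.5.

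The distal regions of highest mean percentile at the other members follow. The Dusp1 one, in an intron of the neighboring gene Ergic1, was at 98.1 to 99.5 in all 9 libraries. The Tsc22d3 one, 22.8 kb downstream, was at 92.4 to 95.6, and the Fkbp5 one, 37.1 kb upstream in an exon of E230001N04Rik, at 78.4 to 90.9. None of these 3 passed a test. The Per2 one, at the start of the neighboring gene Hes6, was at 99.2 to 99.9. The Per1 one, 25.3 kb upstream, was at 96.0, 96.8 and 97.2 at E11.5, at 89.2, 93.0 and 90.8 at E17.5 and at 92.9, 90.9 and 93.0 in EPDCs, and both other groups were lower than E11.5 (-5.67 ± 1.13 at E17.5, limma adjusted p = 0.00407, and -4.40 ± 1.13 in EPDCs, limma adjusted p = 0.0153). The Sgk1 one, 57.3 kb upstream, was at 71.0, 71.0 and 73.6 at E11.5 and at 43.3, 58.6 and 50.5 at E17.5 (-21.1 ± 6.17, limma adjusted p = 0.0263). The Klf9 one, in its intron 21.4 kb downstream, was at 73.2, 80.8 and 77.3 at E11.5, at 71.6, 64.7 and 60.2 at E17.5 and at 39.3, 52.5 and 71.9 in EPDCs. EPDCs were lower than E11.5 there (-22.5 ± 7.42, limma adjusted p = 0.0445), a call lost without E12.5 EPDC sample 1 (-14.9) and under 9 other alternatives.

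Further regions with the greatest called EPDC difference of their gene lay at or between neighboring genes. In a coding exon of Armc12, 46.0 kb upstream of Fkbp5, summits were at 55.0, 53.7 and 39.7 at E11.5, at 0 to 21.7 at E17.5 and at 0 in EPDCs (-49.5 ± 7.12 against E11.5, limma adjusted p = 0.000819). In an intron of 1700045H11Rik, 7.09 kb upstream of Errfi1, EPDCs at 21.3, 0 and 0 were below the E11.5 libraries by 57.9 points (-57.9, limma adjusted p = 0.0037). Past the end of Nr3c1, next to its strongest distal region, EPDCs were at 34.6, 0 and 0, E11.5 at 47.5, 39.0 and 56.0 and E17.5 at 65.9, 73.0 and 75 (-59.7 ± 9.7 against E17.5, limma adjusted p = 0.0011). The E11.5 and E17.5 libraries at this region all lay above the EPDC ones. In a Per2 intron 30.5 kb downstream, EPDCs were at 0, 0 and 71.2 and the epicardial libraries at 70.1 to 78.3, so that E13.5 EPDC sample 2 stood apart from the other EPDC libraries. Its call against E17.5 (-50.9, limma adjusted p = 0.0375) was lost without any 1 of the other 5 libraries of the contrast.

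A few regions were higher in EPDCs than at E11.5, or at both stages. In a coding exon of Hes7, 23.8 kb downstream of Per1, the 3 EPDC libraries were at 84.5, 82.4 and 83.4, E11.5 at 68.0, 73.4 and 61.2 and E17.5 at 75.7, 77.3 and 77.7. EPDCs were higher than E11.5 (15.9 ± 2.95, limma adjusted p = 0.00315) and did not pass against E17.5 (limma adjusted p = 0.112). In an Fkbp5 intron 18.1 kb downstream, EPDCs were at 41.1, 56.3 and 69.0 and the 6 epicardial libraries at 1.6 to 16.0 (45.6 points against E11.5, limma adjusted p = 0.00193). In a Per2 intron 3.2 kb downstream, EPDCs were at 22.8, 52.2 and 50.8 and all epicardial libraries at 0, again with no test. Downstream of Dusp1, 16.1 kb from its start, EPDCs were at 52.6, 56.6 and 67.4, E11.5 at 0, 15.0 and 22.3, and E17.5 at 0 (46.4 points against E11.5, limma adjusted p = 0.00106). At these 4 regions the 3 EPDC libraries lay above every epicardial library. The regions at Fkbp5, Per2 and Dusp1 among them, the regions with relaxed response elements, the Sgk1 region near the Sgk1-205 start, the Per2 region 0.861 kb from its start and the upstream starts of Tsc22d3 and Sgk1 were chosen after their values were seen.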

How the data were processed

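Bulk ATAC-seq of 10 samples was read from 9 peak lists, since the technical replicates of 1 E13.5 EPDC sample share a list. Groups came from the sample labels. The authors aligned reads to mm10 and called peaks with MACS2 2.2.9.1 (versions from the submitters' processing notes). The deposited lists give for each summit a fold enrichment ratio over local background and a −log10 p and −log10 q, with no normalization between libraries. The E13.5 epicardium was not analysed here.

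Summits on chromosomes 1 to 19, X and Y were ranked by −log10 p within each library. Summits were widened to 501 bp, and those overlapping one of higher depth-normalized score were dropped. Regions and promoters with a summit in at least 2 libraries were tested with limma 3.58.1 (trend and robust variance, R 4.3.3, all 9 libraries in 1 fit), and Benjamini-Hochberg adjusted p under 0.05 was a call. The design planned no count test, since the lists hold no read counts. Whole fragments at a summit were solved from fold enrichment and −log10 p. Genes came from GENCODE M21. The principal start is that of the best-ranked protein-coding transcript, a rule set after the lists were seen. Single values were compared by exact permutation. Fits and motif searches were tested on simulated data. The labels call the samples independent pools of hearts. The members and gene lists were chosen with earlier results of these data known. Named regions were, for each gene, the promoter, the distal region of highest mean percentile, the distal region of greatest called difference in each contrast and any region with a full response element. Alternatives were other scalings, thresholds, starts and overlap rules, leaving out single replicates, and a block for the replicate number. Python 3.11.15, numpy 2.4.6, pandas 2.3.3 and scipy 1.17.1 were used. One result for the list of other glucocorticoid targets is not reported here.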

Additional observations from a re-analysis of the deposited data

How the results depend on the processing

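The lists give the strength of called peaks alone, so a feature at 0 may be open below the threshold, and the 3 libraries of a group limit every call. Among the single promoters and regions, 809 values kept direction and side of the threshold, 61 lost the call, 35 gained one and 42 reversed, and for these the cause was not tested. Log2 fragments, the gene record's 5′ end and the block on the summit count were chosen after seeing the data. The replicate numbers did not pair the samples, as deviations of same-numbered libraries correlated at 0.03, 0.09 and -0.05. With the replicate block, 5 promoters (4 higher, 1 lower) and 83 regions (44 and 39) were called between stages, and Per2 gained a call (limma adjusted p = 0.0364). The summit difference stayed at 37.4 per 100000 with the block (exact permutation p = 0.25, the smallest that swaps within a replicate number allow). It ran from 31.3 to 36.4 with other settings and from 35.9 to 38.9 leaving out a library.

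Promoters called between stages numbered 2 by fold enrichment and 2 at the 5′ end of the gene record, where 8 were tested, all 4 of these lower at E17.5. Leaving out a replicate they numbered 0 to 3. With equal top summits 5 were called, on the log2 score 6 and on log2 fragments 5, all higher at E17.5 and each time with the 4 main calls among them. Between EPDCs and E11.5 they numbered 0 by fold enrichment, 3 with equal top summits (2 higher, 1 lower), 4 on the log2 score (all higher), 6 on log2 fragments (4 higher, 2 lower) and 1 to 2 leaving out a replicate. Between EPDCs and E17.5 they numbered 5 on log2 fragments (2 higher, 3 lower) and 2 to 4 leaving out a replicate. Regions called on log2 fragments, tested only among the 72 with a summit in all 9 libraries, numbered 45 (41 higher, 4 lower), 34 (26 and 8) and 40 (8 and 32) in the 3 comparisons. Shares over all features are given for the main setting alone, so whether shifts under the alternatives are particular to the members was not tested.

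Between stages, values reversed with any annotated start for Nr3c1 (2.32) and Per1 (-0.96), and at the gene record's 5′ end for Fkbp5 (-0.23) and Per1 (-0.96). They reversed by fold enrichment for Klf9 (-6.85), Dusp1 (-6.98) and Errfi1 (-0.67), with equal top summits for Sgk1 (1.07), on the log2 score for Per2 (0.03) and Sgk1 (0.26), and on log2 fragments for Per2 (0.01) and Sgk1 (0.11). Leaving out a replicate, Klf9 ran from -0.42 to 1.63 and Sgk1 from -2.09 to 0.66.

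Between EPDCs and E11.5, values reversed with any start for Nr3c1 (-0.61) and at the 5′ end for Tsc22d3 (-10.9), Dusp1 (-1.56) and Sgk1 (-12.5). They reversed for Fkbp5 by fold enrichment (1.12), equal top summits (0.28), log2 score (0.27) and log2 fragments (0.14), for Per2 by fold enrichment (3.65), log2 score (0.32) and log2 fragments (0.11), and for Klf9 on the log2 score (0.03) and log2 fragments (0.0). Leaving out a replicate, Nr3c1 ran from -1.63 to 1.91, Fkbp5 from -0.63 to 0.21 and Per2 from -0.49 to 0.09. Between EPDCs and E17.5, they reversed with any start for Nr3c1 (-2.93) and Per1 (0.91), at the 5′ end for Per1 (0.91), and by fold enrichment for Fkbp5 (0.48), Klf9 (2.51), Dusp1 (17.2) and Errfi1 (0.9), and Tsc22d3 ran from -4.79 to 0.43 leaving out a replicate. By any overlapping interval, the Per1 region 26.9 kb downstream reversed in both contrasts (-10.8 between stages, 5.53 against E17.5), as did the Klf9 region 5.66 kb upstream against E17.5 (2.06).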
